A study of Rattus norvegicus with 11 samples.

Results

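The receptors described here are those for monoamines, acetylcholine and opioid peptides in rat hippocampus. Members were all probe sets whose single gene symbol starts with Htr or Adrb and a digit, Drd, Adra, Chrm, Chrn, Hrh or Opr. This gave 75 probe sets of 57 genes, out of 15866 probe sets on the array other than controls. One of them, Oprpn, is no receptor but the precursor of an opiorphin peptide. It is included in the counts of all members but in no receptor family.

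Serotonin, dopamine, noradrenaline, histamine and acetylcholine reach the hippocampus mainly from neurons whose cell bodies lie elsewhere, while opioid peptides are also made by hippocampal neurons. Most of their receptors span the membrane repeatedly and act through G proteins, which raise or lower cyclic AMP, release calcium or open potassium channels. The nicotinic receptors and the serotonin receptor encoded by Htr3a and Htr3b are instead ion channels built from several subunits. Many of these receptors are known to shape the excitability of hippocampal neurons.

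Total RNA of rat hippocampus was hybridised to 11 arrays, 5 of them from rats given a ketogenic diet and 6 from rats given a control diet. A ketogenic diet is rich in fat and poor in carbohydrate, and the labels name it as protective against seizures. The labels give diet and replicate number only, with no strain, sex, age, genotype, duration of feeding or epilepsy model for either group. Whether samples are separate animals is not stated, so a p-value here speaks to the spread among these samples only, which may be technical.

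The arrays differed between diets beyond single genes, and 1 array stood apart. Median deposited signals were 79.9 to 87.9 on ketogenic arrays and 89.2 to 94.2 on control arrays. On the first principal component, with 34.5% of the variance, ketogenic replicate 3 scored -2.82, while the other 4 ketogenic arrays scored 18.6 to 25.7 and the control arrays -17.3 to -10.6. Its title also ends differently from the others, in a way the labels do not explain, so calls that change without it are given both ways. The 3 prime to 5 prime log2 ratio of control probe sets, a measure of RNA degradation, was higher on ketogenic arrays by 0.20 for Gapdh (exact permutation test, adjusted p = 0.00649) and by 0.19 for actin (exact permutation test, adjusted p = 0.00361). The level of bacterial spike-in probe sets was higher by 0.39 (exact permutation test, adjusted p = 0.00541), with adjustment over 5 array measures. Batches and scan dates are not in the labels, so diet and batch cannot be told apart. As a check of the tissue, all 10 measured general neuron markers and 7 of 8 measured markers of hippocampal principal neurons lay above background on every array. Of the general neuron markers 0 passed the limma test, and 0 had an unadjusted p below 0.05. Of the principal neuron markers 2 were higher on the ketogenic diet and 0 lower, with 6 not called. Camk2a had a log2 difference of 1.34 (limma adjusted p = 0.00397), without overlap of the groups, and Fibcd1 of 0.47 (adjusted p = 0.0353). The part of these neurons in the receptor differences was not tested.

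The first question was which receptor transcripts the array could see at all. Detection calls were not used here, so a background level was set on each array. It was the 90th percentile of 167 probe sets of 156 genes known from tissues other than brain, such as liver and muscle. On the log2 scale of signal this level was 5.93 to 6.41 on ketogenic arrays and 6.35 to 6.46 on control arrays, so the bar itself was lower on 4 of the 5 ketogenic arrays. Of the 75 members, 13 probe sets of 11 genes lay above it on every array of both diets, or 17.3%, against 44.1% of all probe sets other than controls. A further 43 members did not exceed it on any array, and 31 genes had only such probe sets. The other 19 lay above it on some arrays. Among those, Chrm5 was above background on every control array but 3 of 5 ketogenic arrays. Htr5b and the Oprl1 probe set 1369646_at were above it on every ketogenic array and on 5 of 6 control arrays. A member on no array above background may still be expressed below what these probe sets could show.

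**Figure D1:**
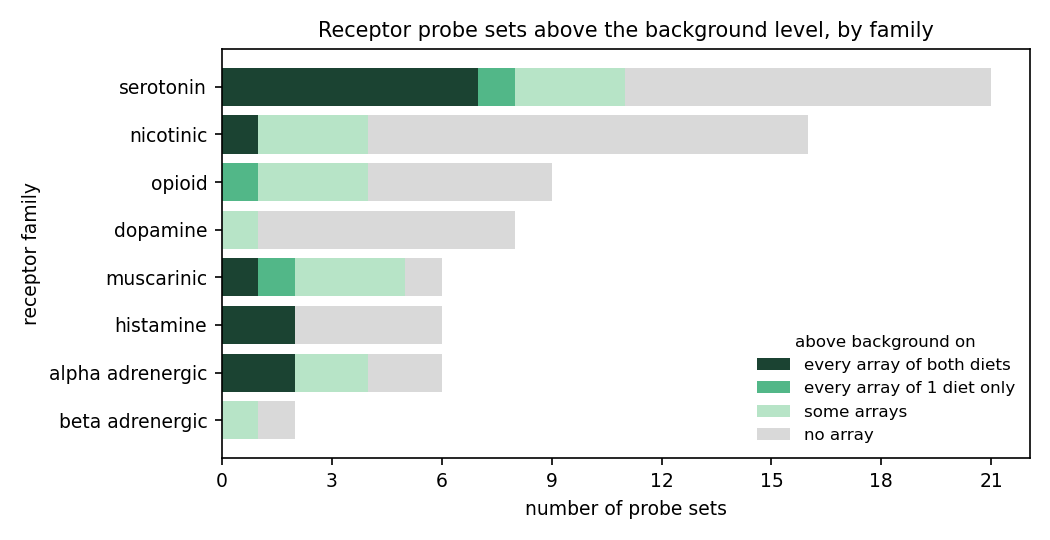
Number of receptor probe sets (horizontal axis) in each receptor family (rows), coloured by the arrays on which they exceeded the background level. Serotonin receptors held 7 of the 13 probe sets above it on every array, and 12 of 16 nicotinic probe sets were above it on no array.

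The serotonin receptors held most of the 13, with 7 of 21 probe sets above background on every array, for Htr1b, Htr2a, Htr2c, Htr3a, Htr5a and Htr7. The alpha adrenergic receptors had 2 of 6 (Adra1d and Adra2c) and the histamine receptors with 2 of 6, both for Hrh3. The muscarinic receptors had 1 of 6 (Chrm3) and the nicotinic subunits 1 of 16 (Chrna7). The dopamine, beta adrenergic and opioid receptors had 0 of 8, 0 of 2 and 0 of 9. For 12 genes there were several probe sets, and in Htr2a, Htr7 and Chrm3 only 1 of them was above background on every array.

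The comparison of the diets was made with limma over 11899 probe sets, and 40 of the 75 members, from 33 genes, passed the filter on low values. Of these 40, 7 were called at an adjusted p of 0.05, which is 17.5%, against 16.5% of all tested probe sets, so the called share was near that of the array as a whole. All 7 were lower on the ketogenic diet, for Chrm3, Chrm5, Chrna7, Htr5a, Htr6, Drd2 and Adrb3, and 0 were higher. Over all tested probe sets 7.87% were lower and 8.62% higher, so that 52.3% of the calls were higher, against 38.3% on the values as deposited. At an unadjusted p below 0.05, 15 members were lower and 2 were higher, Htr1a and Htr5b. The difference was negative in 34 of the 40 tested members, or 85%, with a median log2 difference, ketogenic minus control, of -0.24, against 50.8% and a median of -0.0041 over all tested probe sets. Among the 13 members above background on every array, 3 were called lower and all 13 differences were negative, with a median of -0.24. Of the 7001 probe sets of any gene above background on every array, 9.66% were called lower and 9.07% higher, and 51% of the differences were negative, with a median of -0.0054. The groups did not overlap for 2 members, Drd2 and Chrm5, both lower. Over all tested probe sets 3.08% were lower and 3.91% higher without overlap.

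How many members were called depended on single arrays. The count was 12 without ketogenic replicate 3, of which 10 were lower and 2 higher. It was 3, 2 and 3 without ketogenic replicates 1, 2 and 4, and 3, 4, 3 and 2 without control replicates 2, 3, 4 and 5. The count over all tested probe sets moved alongside, with 3162 calls without ketogenic replicate 3, against 1962 with all arrays. It was 1207, 846 and 800 without ketogenic replicates 1, 2 and 4, and 1173, 1251, 1363 and 1262 without control replicates 2, 3, 4 and 5. Drd2 and Chrm5 were called in all 11 fits with 1 array left out. Chrna7 was called in 5 of them, Adrb3 in 4, Htr5a and the called Chrm3 probe set in 3 each, and Htr6 in 2.

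Probe sets of genes known from other tissues moved the same way as the receptors. Of 63 tested probe sets in that list, 13 were called lower and 0 higher, or 20.6%, with 22 lower and 0 higher at an unadjusted p below 0.05. Their median log2 difference was -0.26, and 87.3% of their differences were negative. Of the 1272 tested probe sets of any gene that were above background on no array, 68.2% were negative, with a median of -0.12. The bar was lower on most ketogenic arrays, so the signs in that class follow in part from how it was chosen. Among probe sets above background on some arrays 44.2% were negative, with a median of 0.046. Grouped by mean level instead, 53.7% were negative under 6 (median -0.033) and 52.2% from 6 to 7 (median -0.016). The part of low signals, of the 3 prime to 5 prime ratios and of the spike-in level in the receptor differences was not tested. With the Gapdh and actin ratios in the fit, 0 members were called, with 2 at an unadjusted p below 0.05, and 6 of all 11899 probe sets were called, so calls were lost over the whole array. The median difference of the members was then -0.16, with Chrm5 at -0.95, Drd2 at -0.35 and Htr6 at -0.50. The other called members were smaller, with Adrb3 at -0.265, Chrna7 at -0.215, Chrm3 (1387462_at) at -0.137 and Htr5a at -0.0142. With the tissue-restricted level in the fit, an alternative chosen after seeing the data, 0 were called and 2 had an unadjusted p below 0.05, while 8 probe sets were called over the whole array. The members' median was then -0.15, with Chrm5 at -0.45, Drd2 at -0.68 and Htr6 at -0.70. Adrb3 was at -0.163, Htr5a at -0.158, Chrm3 (1387462_at) at -0.118 and Chrna7 at -0.0392. With the spike-in level in the fit 1 member was called, Htr5b, which was higher, and 63 probe sets over the whole array, with a median difference of the members of -0.21. In that fit Chrm5 was at -0.82, Drd2 at -0.47 and Htr6 at -0.10. Adrb3 was then at -0.656, Chrm3 (1387462_at) at -0.427, Htr5a at -0.222 and Chrna7 at -0.209.

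**Figure D2:**
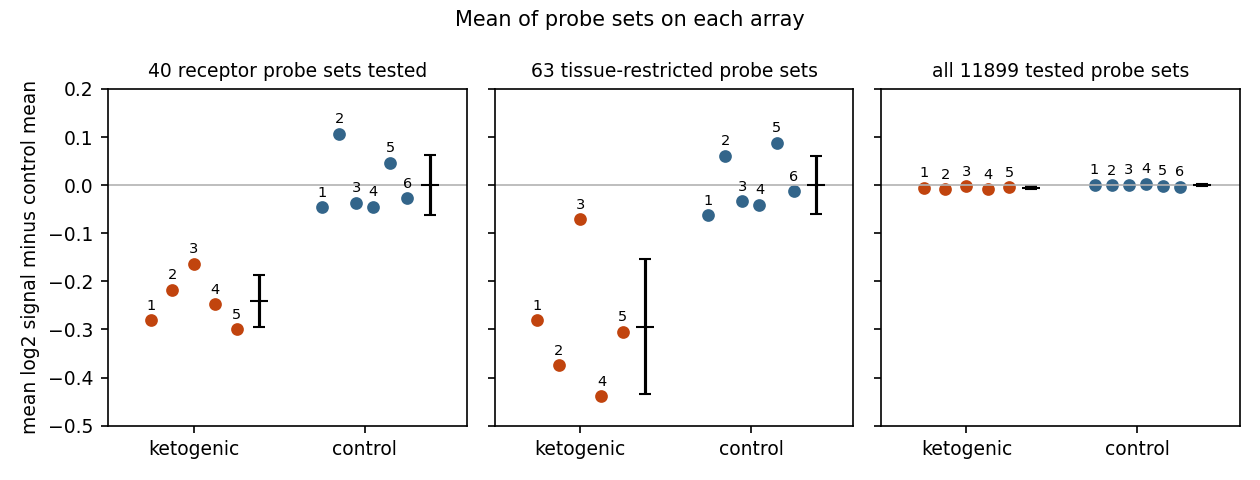
Mean log2 signal on each array relative to the mean of the control arrays (vertical axis), for the 40 tested receptor probe sets, 63 tested probe sets of genes known from other tissues, and all 11899 tested probe sets; numbers are replicates, bars are mean and SD. Ketogenic arrays lie at -0.30 to -0.16 for the receptors, below all control arrays at -0.046 to 0.11, and ketogenic arrays lie at -0.44 to -0.070 in the middle panel.

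Averaged over the 40 tested members, each ketogenic array lay below each control array. The mean log2 signal relative to the control mean was -0.30 to -0.16 on the 5 ketogenic arrays and -0.046 to 0.11 on the 6 control arrays. Ketogenic replicate 3 was the nearest to the controls. Over the probe sets of the tissue-restricted list it was -0.44 to -0.070 on ketogenic arrays and -0.063 to 0.088 on control arrays, again with ketogenic replicate 3 nearest. Markers of several other cell types moved the same way in part. On the ketogenic diet all 4 measured red cell genes fell, with Hbb, a globin, at -3.16, and their summed linear signal was 295 to 385 on ketogenic arrays and 1168 to 1623 on control arrays. Alas2 was the 1 of these above background on no array. Also lower were 2 of 9 markers of meninges (Igfbp2 and Col1a1), 2 of 7 of oligodendrocytes (Mag and Ugt8), 2 of 8 of astrocytes (Gfap and Aqp4), 2 of 6 of microglia (Aif1 and Csf1r) and 1 of 5 of vessels (Slco1a4), and 0 markers of these lists were higher, with 2 of the microglial ones higher at an unadjusted p below 0.05. The called shares of these 5 lists were 20% to 33.3%, against 16.9% of all genes tested. Median log2 differences were -0.42, -0.25, -0.069, -0.18 and -0.22 in the same order. Some markers that were not called had positive differences, among them Slc1a3, Gja1 and Aldoc of astrocytes and Cldn5 of vessels. Of 4 markers of thalamus and habenula, which include the member Chrnb4, 0 were called, with 1 lower at an unadjusted p below 0.05. The part of these cell types and regions in the receptor differences was not tested. In bulk tissue fewer cells of a type and less RNA per cell cannot be told apart.

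**Figure D3:**
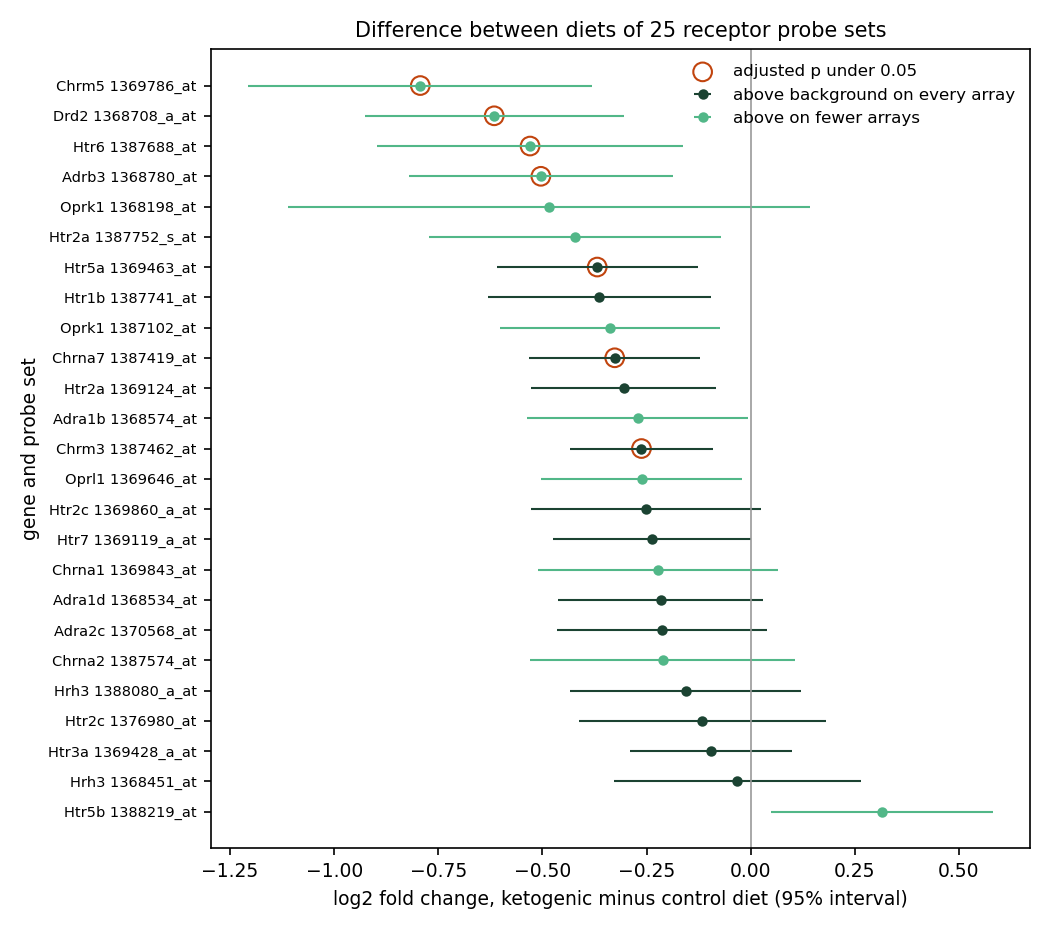
Log2 fold change, ketogenic minus control diet, with its 95% interval (horizontal axis) for the 25 receptor probe sets above background on at least 1 array of each diet (rows); dark points were above background on every array, and rings mark adjusted p under 0.05. Of the 25 differences 24 are negative, and Htr5b is the 1 positive one. The bar was lower on most ketogenic arrays, so this share follows in part from the choice of rows. Not drawn are 6 members above background on ketogenic arrays only, 3 with negative and 3 with positive differences.

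Of the 7 called genes 5 had a promoter entry in RefSeq (build GRCr8), and 45 of the 57 member genes did. The promoters of Chrm3, Chrna7 and Htr5a are shown because these are the 3 called members above background on every array. Each runs 5′ to 3′ on the gene's own strand over 300 bases around the annotated start, with capitals marking GC boxes, the letters GGGCGG on either strand. Chrm3 lies at chr17:64696677-64696976 on the plus strand, Chrna7 at chr1:126249080-126249379 and Htr5a at chr4:8188436-8188735, both on the minus strand.
Chrm3: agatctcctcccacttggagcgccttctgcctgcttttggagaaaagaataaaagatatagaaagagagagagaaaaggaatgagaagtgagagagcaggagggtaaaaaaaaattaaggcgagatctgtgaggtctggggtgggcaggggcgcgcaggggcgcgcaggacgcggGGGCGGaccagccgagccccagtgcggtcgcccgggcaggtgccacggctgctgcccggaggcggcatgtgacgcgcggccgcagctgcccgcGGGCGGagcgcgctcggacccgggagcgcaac
Chrna7: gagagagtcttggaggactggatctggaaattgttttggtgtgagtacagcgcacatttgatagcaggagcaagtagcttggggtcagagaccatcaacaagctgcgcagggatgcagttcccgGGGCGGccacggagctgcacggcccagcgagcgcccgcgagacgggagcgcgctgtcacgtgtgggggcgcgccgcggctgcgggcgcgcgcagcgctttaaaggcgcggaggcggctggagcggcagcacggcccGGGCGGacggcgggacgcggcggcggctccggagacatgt
Htr5a: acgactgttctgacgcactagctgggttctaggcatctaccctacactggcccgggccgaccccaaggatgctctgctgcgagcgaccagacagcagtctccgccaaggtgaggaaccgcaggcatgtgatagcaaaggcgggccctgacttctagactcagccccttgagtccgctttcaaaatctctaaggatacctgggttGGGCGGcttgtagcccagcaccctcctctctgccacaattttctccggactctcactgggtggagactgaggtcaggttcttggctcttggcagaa
Chrm3 and Chrna7 each held 2 GC boxes and Htr5a held 1. The motif was in 23 of the 45 member promoters, or 51.1%, against 33.1% of 33469 promoters of the same length, and in 4 of the 5 called ones. The cyclic AMP response element TGACGTCA, which reads the same on both strands and shares no overlap with the GC box letters, was in 0 of the 45, against 1.83% of all promoters. These are matches of letters, not measured binding sites.

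The muscarinic acetylcholine receptors had all 6 probe sets tested, and 2 of them fell. Chrm3, a receptor that releases calcium through Gq proteins, had log2 signals of 8.30, 8.14, 8.45, 8.05 and 8.36 on the ketogenic arrays, against 8.44 at the lowest, 8.48 at the median and 8.67 at the highest on the 6 control arrays. All but 1 ketogenic array, replicate 3, lay below the lowest control array. Chrm3 averaged 8.26 ± 0.16 (SD, n = 5) on the ketogenic diet and 8.52 ± 0.099 (SD, n = 6) on the control diet, a log2 difference of -0.26 (SE 0.080, limma adjusted p = 0.0400), or 16.6% lower. The other Chrm3 probe set, 1369112_at, averaged 5.84 on ketogenic and 5.69 on control arrays and was above background on 2 ketogenic arrays and no control array (adjusted p = 0.604), so the probe sets of this gene disagree in sign.

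Chrm5, a sparsely expressed receptor of the same coupling, fell the most among the called members. Its log2 signals were 6.16, 6.03, 6.13, 4.95 and 6.16 on the ketogenic arrays, against 6.47, 6.68 and 6.88 at the lowest, median and highest control array. All ketogenic arrays lay below all control arrays, with replicate 4 far below the other 4. Chrm5 averaged 5.88 ± 0.53 (SD, n = 5) on the ketogenic diet and 6.68 ± 0.18 (SD, n = 6) on the control diet, a log2 difference of -0.79 (SE 0.19, limma adjusted p = 0.0174), or 42.3% lower. Without ketogenic replicate 4 the log2 difference was -0.56, and its adjusted p stayed at or below 0.0374 with any 1 array left out. Since 3 of 5 ketogenic arrays were above background, its ketogenic level was measured close to that bar.

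Chrm1, the main muscarinic receptor of hippocampal principal neurons, was poorly seen by its probe set. It was above background on 1 ketogenic array and no control array, with means of 5.05 ± 1.05 (SD, n = 5) on the ketogenic and 5.29 ± 0.22 (SD, n = 6) on the control diet (adjusted p = 0.684). Chrm2, which acts through inhibitory G proteins, averaged 5.89 ± 0.24 (SD, n = 5) on the ketogenic and 6.05 ± 0.15 (SD, n = 6) on the control diet, and was above background on 1 ketogenic array (adjusted p = 0.403). Chrm4, of the same coupling, was above background on no array.

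**Figure D4:**
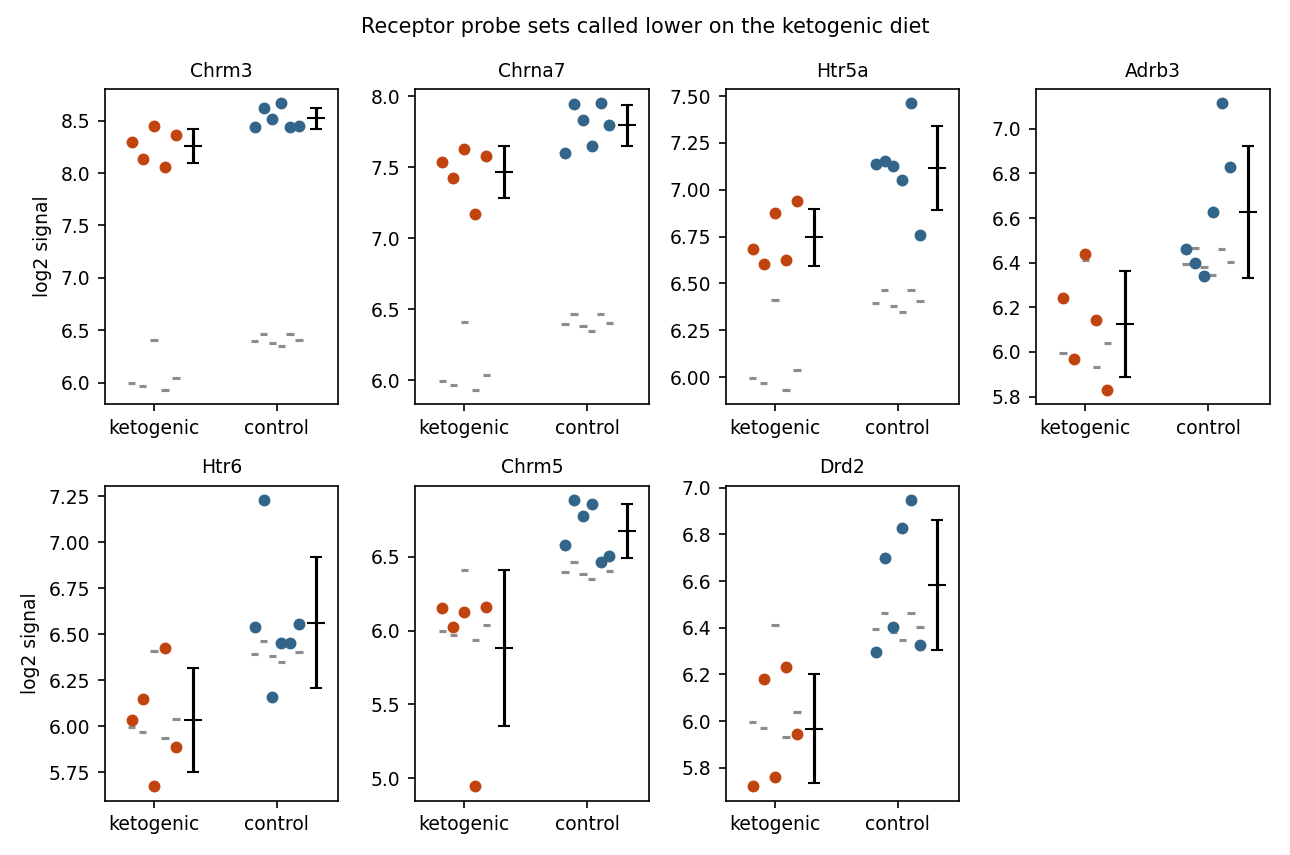
Log2 signal (vertical axes, each with its own range) of the 7 receptor probe sets called lower, on the 5 ketogenic arrays (left) and 6 control arrays (right) in replicate order; black bars are mean and SD, and short grey lines are the background level of each array. The ketogenic and control points do not overlap for Drd2 and Chrm5, and they overlap for the other 5.

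Of the 16 nicotinic subunits, 6 were tested and 1 fell. Chrna7, which forms calcium-permeable channels of 1 kind of subunit, had log2 signals of 7.54, 7.42, 7.63, 7.17 and 7.58 on the ketogenic arrays, against 7.60, 7.81 and 7.95 at the lowest, median and highest control array. Only ketogenic replicate 3 reached into the control range. Chrna7 averaged 7.47 ± 0.18 (SD, n = 5) on the ketogenic diet and 7.80 ± 0.15 (SD, n = 6) on the control diet, a log2 difference of -0.33 (SE 0.096, limma adjusted p = 0.0347), or 20.2% lower. Chrna2, a subunit known from some hippocampal interneurons, was above background on 4 ketogenic and 4 control arrays and had a log2 difference of -0.21 (SE 0.15, adjusted p = 0.338). The values of Chrna1, the subunit of muscle, were above background on 3 ketogenic and 2 control arrays (log2 difference -0.22, adjusted p = 0.264). Chrna5 was above background on 1 ketogenic array, with means of 5.74 on the ketogenic and 5.71 on the control diet (adjusted p = 0.911).

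The other 12 nicotinic subunits were above background on no array. They include Chrna4 and Chrnb2, which together form the commonest nicotinic receptor of brain, and Chrna3 and Chrnb4, which form that of autonomic ganglia. Chrna4 averaged 5.39 on ketogenic and 5.19 on control arrays, and Chrnb4 averaged 5.48 on ketogenic and 5.78 on control arrays. Chrnb2 had means of 4.75 on ketogenic and 4.74 on control arrays, and Chrna3 means of 2.57 on ketogenic and 2.99 on control arrays, neither of them tested. The muscle subunits Chrnb1, Chrnd, Chrne and Chrng were also not tested.

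Among the serotonin receptors 12 of 21 probe sets were tested and 2 fell. Htr5a, which lowers cyclic AMP, had log2 signals of 6.69, 6.60, 6.88, 6.63 and 6.94 on the ketogenic arrays, against 6.76, 7.13 and 7.46 at the lowest, median and highest control array. Control replicate 6 was the low one, and the other 5 control arrays lay above every ketogenic array. Htr5a averaged 6.75 ± 0.15 (SD, n = 5) on the ketogenic diet and 7.11 ± 0.22 (SD, n = 6) on the control diet, a log2 difference of -0.37 (SE 0.11, limma adjusted p = 0.0405), or 22.5% lower. Htr6, which raises cyclic AMP, had log2 signals of 6.03, 6.15, 5.67, 6.43 and 5.89 on the ketogenic arrays, against 6.16, 6.49 and 7.23 at the lowest, median and highest control array. It was above background on 3 of 5 ketogenic and 4 of 6 control arrays, and control replicate 2 lay far above the others. Htr6 averaged 6.03 ± 0.28 (SD, n = 5) on the ketogenic diet and 6.56 ± 0.36 (SD, n = 6) on the control diet, a log2 difference of -0.53 (SE 0.17, limma adjusted p = 0.0484), or 30.7% lower. Without ketogenic replicate 3 it was -0.44 and not called (adjusted p = 0.0761).

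For other serotonin receptors the outcome turned on ketogenic replicate 3. Htr1b, an inhibitory receptor of nerve terminals, had log2 signals of 6.38, 6.24, 6.95, 6.16 and 6.57 on the ketogenic arrays, against 6.72, 6.82 and 6.92 at the lowest, median and highest control array. Replicate 3 was above every control array and the other 4 ketogenic arrays were below all of them. The log2 difference of Htr1b was -0.36 (SE 0.13, limma adjusted p = 0.0610) with that array and -0.49 (adjusted p = 0.00376) without it. Htr5b, a relative of Htr5a that is intact in rodents, had log2 signals of 6.85, 6.84, 6.50, 6.83 and 6.94 on the ketogenic arrays, against 6.08, 6.45 and 6.74 at the lowest, median and highest control array. Here replicate 3 was the 1 ketogenic array within the control range. The log2 difference of Htr5b was 0.32 (SE 0.12, limma adjusted p = 0.0926) with it and 0.39 (adjusted p = 0.0320) without it.

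Htr1a, the inhibitory serotonin receptor of hippocampal principal neurons, was the other member that was higher at an unadjusted p below 0.05. Its log2 signals were 6.01, 6.13, 5.43, 6.43 and 6.45 on the ketogenic arrays, against 5.09, 5.80 and 5.87 at the lowest, median and highest control array. It was above background on 4 ketogenic arrays and no control array, so its control values are not well above background and no fold is given. The 4 ketogenic arrays other than replicate 3 lay above all control arrays. Htr1a averaged 6.09 ± 0.42 (SD, n = 5) on the ketogenic diet and 5.62 ± 0.34 (SD, n = 6) on the control diet (limma adjusted p = 0.116, and adjusted p = 0.0190 without ketogenic replicate 3).

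The receptors of the Gq-coupled group, Htr2a and Htr2c, did not pass the test. The Htr2a probe set above background on every array, 1369124_at, averaged 6.66 ± 0.22 (SD, n = 5) on the ketogenic and 6.97 ± 0.11 (SD, n = 6) on the control diet, a log2 difference of -0.30 (limma adjusted p = 0.0577). Without ketogenic replicate 3 it was called (log2 difference -0.34, adjusted p = 0.0313), and without ketogenic replicate 1 as well (-0.37, adjusted p = 0.0425). A further Htr2a probe set, 1387752_s_at, had a log2 difference of -0.42 (adjusted p = 0.0888), and the other two were above background on no array and not tested.

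Htr2c is also abundant in choroid plexus, which secretes cerebrospinal fluid. Its probe set 1376980_at had log2 signals of 8.20, 8.64, 7.59, 8.24 and 8.15 on the ketogenic arrays, against 8.12, 8.25 and 8.58 at the lowest, median and highest control array. The log2 difference was -0.12 (SE 0.14, limma adjusted p = 0.589), and its sign turned to 0.026 without ketogenic replicate 3. The other Htr2c probe set, 1369860_a_at, had a log2 difference of -0.25 (SE 0.13, adjusted p = 0.190). Of 10 measured choroid plexus markers 3 fell (Aqp1, Cldn2 and Folr1) and 0 rose, while Cldn2, Kcnj13 and F5 were above background on no array. Their summed linear signal was 838 to 1511 on ketogenic arrays and 1115 to 2939 on control arrays, ranges that overlap. The highest sum was on control replicate 1, where the marker Ttr had a log2 signal of 10.63. On the other control arrays Ttr was at 6.35 to 7.92, and its log2 difference was -0.29 (limma adjusted p = 0.781). The part of choroid plexus in the Htr2c values was not tested.

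Htr3a, a subunit of the serotonin-gated channel, averaged 6.48 ± 0.15 (SD, n = 5) on the ketogenic and 6.58 ± 0.072 (SD, n = 6) on the control diet (log2 difference -0.096, limma adjusted p = 0.483). The 95% interval of that difference was -0.29 to 0.098. Its partner subunit Htr3b was above background on no array, although its probe set 1371077_at, with limma adjusted p = 0.0518, was called lower without ketogenic replicate 3 (adjusted p = 0.0180). Htr7, which raises cyclic AMP, averaged 6.75 ± 0.18 (SD, n = 5) on the ketogenic and 6.98 ± 0.19 (SD, n = 6) on the control diet in its probe set 1369119_a_at (log2 difference -0.24, adjusted p = 0.151). Without ketogenic replicate 3 this probe set was called lower (log2 difference -0.31, adjusted p = 0.0473). The other two Htr7 probe sets, and those of Htr1d, Htr1f, Htr2b and Htr4, were above background on no array and were not tested. Htr4, a receptor that raises cyclic AMP, had means of 4.52 on ketogenic and 4.54 on control arrays.

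**Figure D5:**
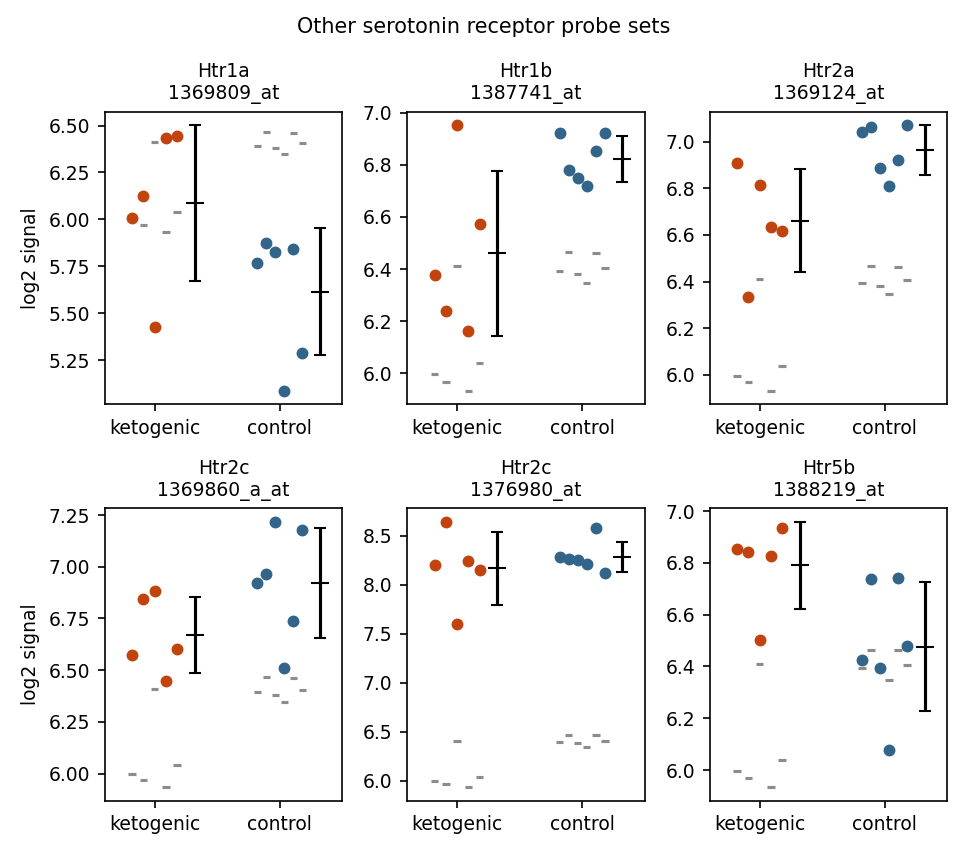
Log2 signal (vertical axes, each with its own range) of 6 serotonin receptor probe sets that were not called, on the 5 ketogenic arrays (left) and 6 control arrays (right) in replicate order; black bars are mean and SD, and short grey lines are the background level of each array. Ketogenic replicate 3, the middle ketogenic point, is the lowest of its group in Htr1a, Htr5b and 1376980_at of Htr2c. It is the highest in Htr1b and in 1369860_a_at of Htr2c.

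Of the 8 dopamine receptor probe sets 3 were tested and 1 fell. Drd2, which lowers cyclic AMP and is best known from the striatum, had log2 signals of 5.72, 6.18, 5.76, 6.23 and 5.94 on the ketogenic arrays, against 6.30, 6.55 and 6.95 at the lowest, median and highest control array. All ketogenic arrays lay below all control arrays, and 2 ketogenic and 4 control arrays were above background. Drd2 averaged 5.97 ± 0.23 (SD, n = 5) on the ketogenic diet and 6.58 ± 0.28 (SD, n = 6) on the control diet, a log2 difference of -0.62 (SE 0.15, limma adjusted p = 0.0152), or 34.7% lower. With any 1 array left out its adjusted p was at most 0.0380 and its log2 difference -0.68 to -0.54.

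As the striatum lies near the hippocampus, its markers are set beside Drd2. The list holds Drd2 and Drd1 themselves, so its counts, median and summed signal include them. Of 7 measured striatal markers Drd2 was the 1 called, and Drd1 was above background on no array. At an unadjusted p below 0.05 the lower ones were 3, Drd2, Rarb (log2 difference -0.31, adjusted p = 0.0550) and Rgs9 (-0.29, adjusted p = 0.141), and the median over the 7 was -0.17. The log2 difference was -0.14 for Penk (adjusted p = 0.467), -0.019 for Pde10a (adjusted p = 0.948) and 0.23 for Ppp1r1b (adjusted p = 0.186). Their summed linear signal was 872 to 1204 on ketogenic arrays and 946 to 1181 on control arrays, ranges that overlap.

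The other dopamine receptors were above background on no array. For Drd1, which raises cyclic AMP, the tested probe set 1368478_at averaged 5.49 on ketogenic and 5.67 on control arrays (adjusted p = 0.354). Drd3 averaged 5.31 on ketogenic and 5.65 on control arrays (adjusted p = 0.181). The 3 probe sets of Drd4, the other Drd1 probe set and Drd5, a Drd1-like receptor known from hippocampus, were not tested.

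The alpha adrenergic receptors had 3 of 6 probe sets tested and 0 called, with 1 at an unadjusted p below 0.05, and all 3 differences were negative. Adra1d, which acts through Gq proteins, had log2 signals of 7.01, 7.54, 7.65, 7.35 and 7.59 on the ketogenic arrays, against 7.51, 7.56 and 7.86 at the lowest, median and highest control array. The groups overlapped, and its log2 difference was -0.22 (SE 0.12, limma adjusted p = 0.204). Adra2c, an inhibitory receptor also found on noradrenergic terminals, had log2 signals of 7.19, 6.60, 6.98, 6.49 and 6.85 on the ketogenic arrays, against 6.88, 7.003 and 7.23 at the lowest, median and highest control array. Its groups overlapped too (log2 difference -0.21, SE 0.12, adjusted p = 0.219). Adra1b was above background on 2 ketogenic arrays and 1 control array (log2 difference -0.27, adjusted p = 0.143). Adra1a and Adra2a were above background on no array, and Adra2b on 1 control array.

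Of the beta adrenergic receptors, which raise cyclic AMP, Adrb3 was tested and fell. It is best known from fat tissue. Its log2 signals were 6.24, 5.97, 6.44, 6.14 and 5.83 on the ketogenic arrays, against 6.34, 6.54 and 7.11 at the lowest, median and highest control array. It lay above background on 4 of 5 ketogenic and 4 of 6 control arrays, and ketogenic replicate 3 was within the control range. Adrb3 averaged 6.12 ± 0.24 (SD, n = 5) on the ketogenic diet and 6.63 ± 0.30 (SD, n = 6) on the control diet, a log2 difference of -0.50 (SE 0.15, limma adjusted p = 0.0349), or 29.5% lower. Adrb1, the main beta receptor of forebrain neurons, was above background on no array, with means of 3.92 on ketogenic and 4.59 on control arrays.

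The histamine receptors had 3 of 6 probe sets tested and 0 called, with 1 at an unadjusted p below 0.05. Hrh3, the inhibitory receptor of histamine and other terminals, was above background on every array in both probe sets. Its probe set 1368451_at had log2 signals of 7.35, 7.58, 7.03, 7.24 and 6.63 on the ketogenic arrays, against 6.99, 7.20 and 7.37 at the lowest, median and highest control array. The control range lay inside the ketogenic range, and the log2 difference was -0.032 (95% interval -0.33 to 0.27, limma adjusted p = 0.891). The probe set 1388080_a_at had a log2 difference of -0.16 (95% interval -0.43 to 0.12, adjusted p = 0.420). Hrh1, Hrh2 and Hrh4 were above background on no array, and both Hrh1 probe sets lay at or near the floor of 2.33.

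The opioid receptors had 6 of 9 probe sets tested and 0 called, with 2 at an unadjusted p below 0.05, and all 6 differences were negative. Oprl1, the nociceptin receptor, had log2 signals of 6.13, 6.09, 6.45, 6.33 and 6.37 on the ketogenic arrays, against 6.30, 6.53 and 6.84 at the lowest, median and highest control array in probe set 1369646_at. The groups overlapped, with a log2 difference of -0.26 (SE 0.11, limma adjusted p = 0.123). Its probe set 1369645_at averaged 6.05 on ketogenic and 6.19 on control arrays and was above background on 3 ketogenic arrays and no control array (adjusted p = 0.427), and the remaining probe set, 1387661_a_at, was above background on no array. Oprk1, the kappa receptor for dynorphins, averaged 5.92 ± 0.22 (SD, n = 5) on the ketogenic and 6.26 ± 0.16 (SD, n = 6) on the control diet in probe set 1387102_at (log2 difference -0.34, adjusted p = 0.0754). Its probe set 1368198_at spread widely, with 4.94 to 6.23 on ketogenic arrays and 5.01 to 6.84 on control arrays (adjusted p = 0.264). Oprm1, the mu receptor, and Oprd1, the delta receptor, were above background on no array. Oprm1 averaged 5.65 on ketogenic and 5.93 on control arrays in its tested probe set (adjusted p = 0.237).

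The receptors' partners were described from 7 lists of 116 genes that make, carry, sense or pass on these signals, of which 64 were measured. Of these 64 genes 4 were higher and 2 lower on the ketogenic diet, or 9.38%, against 16.9% of 8397 genes. Their median log2 difference was 0.011, against -0.0032 over all genes. On the values as deposited 6 were higher and 7 lower, and the called count was 15 without ketogenic replicate 3, 2 without ketogenic replicates 2 and 4, 2 without control replicate 2, and 3 without control replicates 4 and 5.

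Of 10 measured genes of transmitter synthesis and breakdown, Ddc fell and 0 rose. Ddc, which makes dopamine and serotonin from their precursors, had log2 signals of 6.17, 5.93, 6.45, 6.04 and 6.33 on the ketogenic arrays, against 6.46, 6.51 and 6.84 at the lowest, median and highest control array. The groups did not overlap, and the log2 difference was -0.38 (SE 0.11, limma adjusted p = 0.0353). Of the 4 measured transporters 0 were called, with 1 at an unadjusted p below 0.05, the vesicular monoamine transporter Slc18a2 (log2 difference -0.26, adjusted p = 0.0898). Of the 3 measured opioid peptide genes, Pdyn, Penk and Pnoc, 0 were called and 0 had an unadjusted p below 0.05. Pdyn, the dynorphin precursor, averaged 6.18 ± 0.22 (SD, n = 5) on the ketogenic and 5.80 ± 0.46 (SD, n = 6) on the control diet (log2 difference 0.38, adjusted p = 0.195).

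Of 17 measured G protein subunits 1 rose and 1 fell. Gnb5, a beta subunit that pairs with RGS proteins, rose by 0.30 in log2 terms (SE 0.085, limma adjusted p = 0.0287). Gnai2, an alpha subunit that lowers cyclic AMP, was lower by 0.31 in log2 terms (SE 0.091, adjusted p = 0.0345). Of 15 receptor kinases, arrestins and RGS proteins 1 rose and 0 fell. Arrb2, an arrestin that uncouples receptors, rose by 0.40 (SE 0.13, limma adjusted p = 0.0437). It was above background on 7 of the 11 arrays, and those not above it were control arrays, so its control level lay close to that bar. Of 7 adenylyl cyclases and phospholipases 0 were called, and 0 had an unadjusted p below 0.05. Of 8 assembly and scaffold partners 2 rose and 0 fell. Ywhae, a 14-3-3 adaptor, had log2 signals of 11.32, 11.22, 10.91, 11.31 and 11.07 on the ketogenic arrays, against 10.65, 10.78 and 10.90 at the lowest, median and highest control array, with no overlap (log2 difference 0.38, SE 0.071, adjusted p = 0.00578). Agrn, which clusters acetylcholine receptors at the nerve-muscle synapse, rose by 0.30 (SE 0.076, adjusted p = 0.0195), also without overlap.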

How the data were processed

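Titles put 5 arrays in the ketogenic and 6 in the control diet group. Each array has a column of deposited intensities, on a linear scale, for 15923 probe sets. The sources used here do not give how the authors made them. The trimmed mean intensity was 150.023 to 150.028 on each array.

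Array medians of log2 spanned 0.24, above the limit of 0.1, so arrays were quantile normalized. Values below the 5th percentile, a signal of 5.02 or 2.33 on the log2 scale, were set to it. Control probe sets (57) were removed, and the lowest 25% by mean, below 5.17, were not tested. Diets were compared with limma 3.58.1 in R 4.3.3 (lmFit, eBayes with trend, two-sided, Benjamini-Hochberg over 11899 probe sets, 0.05). Array measures were compared by exact permutation, where no p lies below 0.00216. The fit was tested on simulated data. The number of arrays limits the precision.

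Symbols came from the platform annotation (12789 probe sets with 1 symbol, 312 with several, 2771 unnamed) and were updated by gene identifier with a RefSeq table of GRCr8, in which 12754 were found. Members and lists were chosen with earlier results of these data known. Named were called members, members above background on all arrays of a diet, each family's highest probe set, genes with several probe sets and a fixed set, of which 1 item is not reported here. List genes were each taken by their tested probe set with the highest mean, and those named with values were called or had the smallest p, or were chosen after their values were seen.

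Both diets share replicate numbers 1 to 5. Deviations of same-numbered samples correlated at 0.00895 to 0.0771. Of the 5 ketogenic samples, 2 correlated best with the control sample of their own number. With so few samples this cannot settle whether the numbers pair them, and the main fit took them as unpaired. Alternatives were other scalings, filters, floors and background levels, the replicate block, array weights, other variance models, covariates and leaving out each array.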

Additional observations from a re-analysis of the deposited data

Results flagged for a closer look

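Among 96 groups of values, 9 had 1 array far from the rest, where chance gives about 1 in 20, or 4.8. Ketogenic replicate 3 was the array in 3 of these. All values are log2 signals unless stated.

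On ketogenic arrays, Chrm5 was at 4.95 on replicate 4, against 6.03 for the nearest array, Htr3b (1371077_at) at 3.19 on replicate 5, against 4.99 for the nearest, and Htr5b at 6.50 on replicate 3, against 6.83 for the nearest. The background level of ketogenic replicate 3 was 6.41, against 6.04 for the nearest ketogenic array, and its first component score -2.82, against 18.6.

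On control arrays, Htr6 was at 7.23 on replicate 2, against 6.55 for the nearest array, and Chrm3 (1369112_at) at 6.30 on replicate 2, against 5.69. Htr2c (1376980_at) was at 8.58 on control replicate 5, against 8.28 for the nearest, and Drd1 (1368478_at) at 5.42 on replicate 6, against 5.68. Drd1 and Htr3b were above background on no array.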

How the results depend on the processing

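Of the 40 tested members 7 were called as reported. The count was 18 on the values as deposited and 14 with arrays scaled to a common 75th percentile, all of them lower, with median log2 differences of the members of -0.38 and -0.34. Over all tested probe sets as deposited, 1736 were lower and 1076 higher, with a median of -0.060. At the common 75th percentile 1373 were lower and 1355 higher, with a median of -0.026. The member count was 3 of 75 with no filter, where 1402 of all 15866 probe sets were called. It was 3 of 14 with the lowest 50% of probe sets not tested, where 1637 of 7933 were called. Without a variance trend it was 4, beside 1609 of 11899. With array weights it was 13, of which 11 were lower. It was 0 with the Gapdh and actin ratios in the fit and 1 with the spike-in level. It was 0 with the tissue-restricted level, and 9 with the older spike-in probe sets, both added after seeing the data. Leaving out 1 array gave 2 to 12. The replicate block also gave 7, of which 5 were the same probe sets (Chrm3 and Adrb3 had adjusted p = 0.0738 and 0.0915), with 1816 calls over all probe sets. Over all probe sets 1962 were called, 3136 with array weights, 6 with the 3 prime to 5 prime ratios (767 at an unadjusted p below 0.05), 63 with the spike-in level, 8 with the tissue-restricted level and 800 to 3162 with 1 array left out. Of the partner genes 6 were called, 13 as deposited, 13 at a common 75th percentile, 14 with array weights, 14 with the older spike-in probe sets, 0 with the 3 prime to 5 prime ratios (5 at an unadjusted p below 0.05), 0 with the spike-in level (13), 0 with the tissue-restricted level (6) and 2 to 15 with 1 array left out. The number of members above background on every array, 13, was 24 with the 75th percentile of the tissue-restricted list as background, 6 with the 95th, 29 with the 25th percentile of all probe sets, 14 without Myh1 in the list (added after seeing the data) and 13 to 14 with 1 array left out. A fit with other probe sets or fewer arrays differs by construction, and counts moved both up and down. The cause of these changes was not tested. Called members turned sign under 0 alternatives. Signals near background limit what can be said of members not above it on every array.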
